A study of Canis lupus familiaris with 10 samples.

Results

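Expression of 57 genes of DNA repair and damage signalling was examined in 2 canine cell lines described as B-cell lymphoma. Cells were given an inhibitor of PRMT5 or served as controls. PRMT5 is a methyltransferase that adds 2 methyl groups symmetrically to arginines of histones and many other proteins. The genes were listed by symbol and sorted by role into damage signalling, homologous recombination, the Fanconi anaemia pathway, end joining, mismatch repair, nucleotide excision repair, and base excision with single-strand break repair. A gene counted as measured where the array annotation gave a probe set its symbol alone, and of several such probe sets the one with the highest mean over the 10 arrays stood for the gene. In total 53 of the 57 genes were measured, among 15947 symbols on the array. RNF8, PALB2, FANCF and ERCC5 were not analysed here, because no probe set carried their symbol alone.

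The arrays fell into 4 groups, namely CLBL-1 cells given 100 nM PR220 and collected at day 2 (2 arrays), CLBL-1 control cells (3 arrays), 17-71 cells given 100 nM PR220 and collected at day 4 (3 arrays), and 17-71 control cells (2 arrays). PR220 is described in the labels as a selective PRMT5 inhibitor. The study names its inhibitor C220 at the same dose and days, and both names were taken to mean the same compound, which no source states. CLBL-1 and 17-71 are established lines grown from canine lymph node, so each stands for the cells of a single tumour line. The study describes biological triplicate experiments, while the groups here hold 2 or 3 arrays and the labels number them without saying which came from separate cultures, so p-values measure only the spread between these arrays. Since each line was collected on its own day, line and day cannot be told apart. Values were RMA log2 expression, the background-corrected, normalised and summarised signal of a probe set, in which a difference of 1 corresponds to a 2-fold difference.

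Cells meet broken DNA with kinases and adaptors that mark the site and hold the cell cycle. Double-strand breaks are then repaired from the sister chromatid by homologous recombination or rejoined directly by end joining. The Fanconi anaemia pathway unhooks crosslinks between strands, mismatch repair corrects replication errors, and the excision pathways remove damaged stretches or single bases. B lymphocytes cut and mutate their own DNA when they assemble and diversify antibody genes, and end joining, mismatch repair and base excision repair act in those steps. Many repair genes are transcribed mainly in cells that replicate their DNA.

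Array medians lay between 3.71 and 3.79, and Pearson's r over all probe sets was 0.99 to 0.993 for arrays within groups, 0.988 to 0.991 for a treated with a control array of its line, and 0.934 to 0.939 across lines. Of the B cell markers, 8 of 10 were measured, and the mean of all 8 lay above 5 in treated and in control CLBL-1 arrays (medians 8.73 and 8.93). In 17-71, 1 of the 8 lay above 5 in treated and 2 in control arrays (medians 3.86 and 3.89), and MS4A1 (CD20) averaged 2.40 in treated and 2.19 in control arrays. CD22 averaged 7.49 in treated and 7.37 in control 17-71 arrays, and PAX5 averaged 4.996 and 5.04. The values of most B cell markers in 17-71 therefore do not bear out its labelled cell type, and the line is called by its name below. T and NK cell markers above 5 numbered 2 of 10 in CLBL-1 and 1 of 10 in 17-71, in treated and in control arrays alike. Those in CLBL-1 were CD3G (8.88 in treated and 8.96 in control arrays) and CD3D (7.16 and 6.83). CD3G averaged 4.05 and 4.61 in treated and control 17-71 arrays, and CD3D 2.71 and 2.75. Above 5 in 17-71 was CD2 (8.29 in treated and 8.18 in control arrays), which averaged 4.82 and 4.89 in CLBL-1. CD3E, CD5, CD8A, CD4, NKG7, NCR1 and ZAP70 stayed below 5 in every group. Of 8 myeloid markers, 1 lay above 5 in CLBL-1, treated and control, against 3 in treated and 2 in control 17-71 arrays. CD68 averaged 4.29 in treated and 4.13 in control CLBL-1 arrays but 9.61 in treated and 9.65 in control 17-71 arrays, and S100A8 averaged 1.84 and 1.76 in treated and control CLBL-1 but 5.48 and 4.67 in treated and control 17-71 arrays. LYZ was high in both lines, at 10.97 and 11.13 in treated and control CLBL-1 and 10.71 and 10.79 in treated and control 17-71 arrays. CD14, CSF1R, ITGAM, MPO and CSF3R stayed below 5 in every group, so the myeloid list as a whole did not differ in 1 direction. Stromal and epithelial markers above 5 numbered 0 of 7, except 1 in treated 17-71 arrays. PRMT5 itself, the target of the inhibitor, read 8.53 and 8.39 in treated CLBL-1 arrays, against 8.77, 8.70 and 8.73 in control CLBL-1 arrays (-0.27, SE 0.0904, adjusted p = 0.292). In 17-71 PRMT5 read 7.84, 7.69 and 7.75 in treated arrays, against 7.72 and 7.86 in control arrays (-0.032, SE 0.102, adjusted p = 0.95). Inhibition acts on the activity of the enzyme, so its mRNA level does not check the labels.

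Changes of the repair genes after PRMT5 inhibition were small in both lines. Over the 53 genes the median log2 change was 0.0034 in CLBL-1 and -0.072 in 17-71, against 0.0057 and -0.00054 over all single-symbol genes. Over the 8096 single-symbol genes as bright as the repair genes (mean at or above that of the lowest repair gene, 4.58) the medians were 0.016 and -0.023. The CLBL-1 median turned to -0.012 under cyclic loess normalisation and lay between -0.014 and 0.015 with an array left out, so it has no settled direction. Changes ran between -0.57 (H2AX) and 0.46 (XRCC5) in CLBL-1, and between -0.48 (XPA) and 0.32 (EXO1) in 17-71. The 95% interval of the change lay wholly within 1 log2 unit of 0 for 53 of 53 genes in CLBL-1 and for 52 of 53 in 17-71, the exception being H2AX (-1.01 to 0.16). The intervals reached a median of 0.246 to either side of the estimate in CLBL-1 and 0.276 in 17-71. They hold for single genes, without adjustment for the number of probe sets. Changes smaller than this were generally not detectable with this number of arrays, even before adjustment. After adjustment wider changes did not pass either, such as H2AX in CLBL-1 (-0.57, limma, adjusted p = 0.168) and XPA in 17-71 (-0.48, adjusted p = 0.468). The cells were profiled in bulk, so fewer cells of a kind and less RNA per cell cannot be told apart in these values.

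The study also drew DNA repair from these arrays as a gene group, so counts over the 57 genes are no independent evidence of a direction. In CLBL-1 alone, 0 of 53 repair genes passed an adjusted p of 0.05 (limma, Benjamini-Hochberg over all 32391 probe sets), against a background of 0.133% of all probe sets. At an unadjusted p below 0.05, 9 genes passed in CLBL-1, which is 17% of the genes against 13.7% of all probe sets. Of these 6 were higher (6.83% of all probe sets were) and 3 lower (6.89%). In 17-71 alone, 0 of 53 passed with adjustment (0% of all probe sets), and 9 passed without it (17% of the genes against 9% of all probe sets). Here 1 was higher (4.08% of all probe sets) and 8 were lower (4.93%). Because most repair genes lay well above the dimmest probe sets, the same shares were taken over the 8096 similarly bright genes. Among those, 26.1% passed without adjustment in CLBL-1 and 9.5% in 17-71, where 7.39% were lower. The share of repair genes was thus below that of similarly bright genes in CLBL-1 and above it in 17-71, as a description for which no test was run.

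The arrays were also compared for overlap. In CLBL-1 the treated and control arrays of 23 of 53 genes did not overlap, 11 higher and 12 lower in treated cells (16.9% and 15.5% of all probe sets), against 32.4% of all probe sets and 54.2% of the similarly bright genes. In 17-71 this held for 20 genes, 5 higher and 15 lower in treated cells (14.1% and 13.8% of all probe sets), against 27.8% of all probe sets and 38.5% of the similarly bright genes. The 15 lower in 17-71 were 28.3% of the repair genes, near the 24.1% of similarly bright genes. Taken array by array, the median deviation of the 53 genes from the control mean was -0.013 and 0.015 in the treated CLBL-1 arrays. It was -0.084, -0.059 and -0.078 in the treated 17-71 arrays, while the median over all genes in those arrays lay within 0.01 of 0. All 3 treated 17-71 arrays therefore lay on the lower side by a small amount, measured against the same 2 control arrays. For scale, the median level of the 53 genes varied between arrays of a group by a mean SD of 0.0793. Similarly bright genes had a median change of -0.023 in 17-71.

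**Figure D1:**
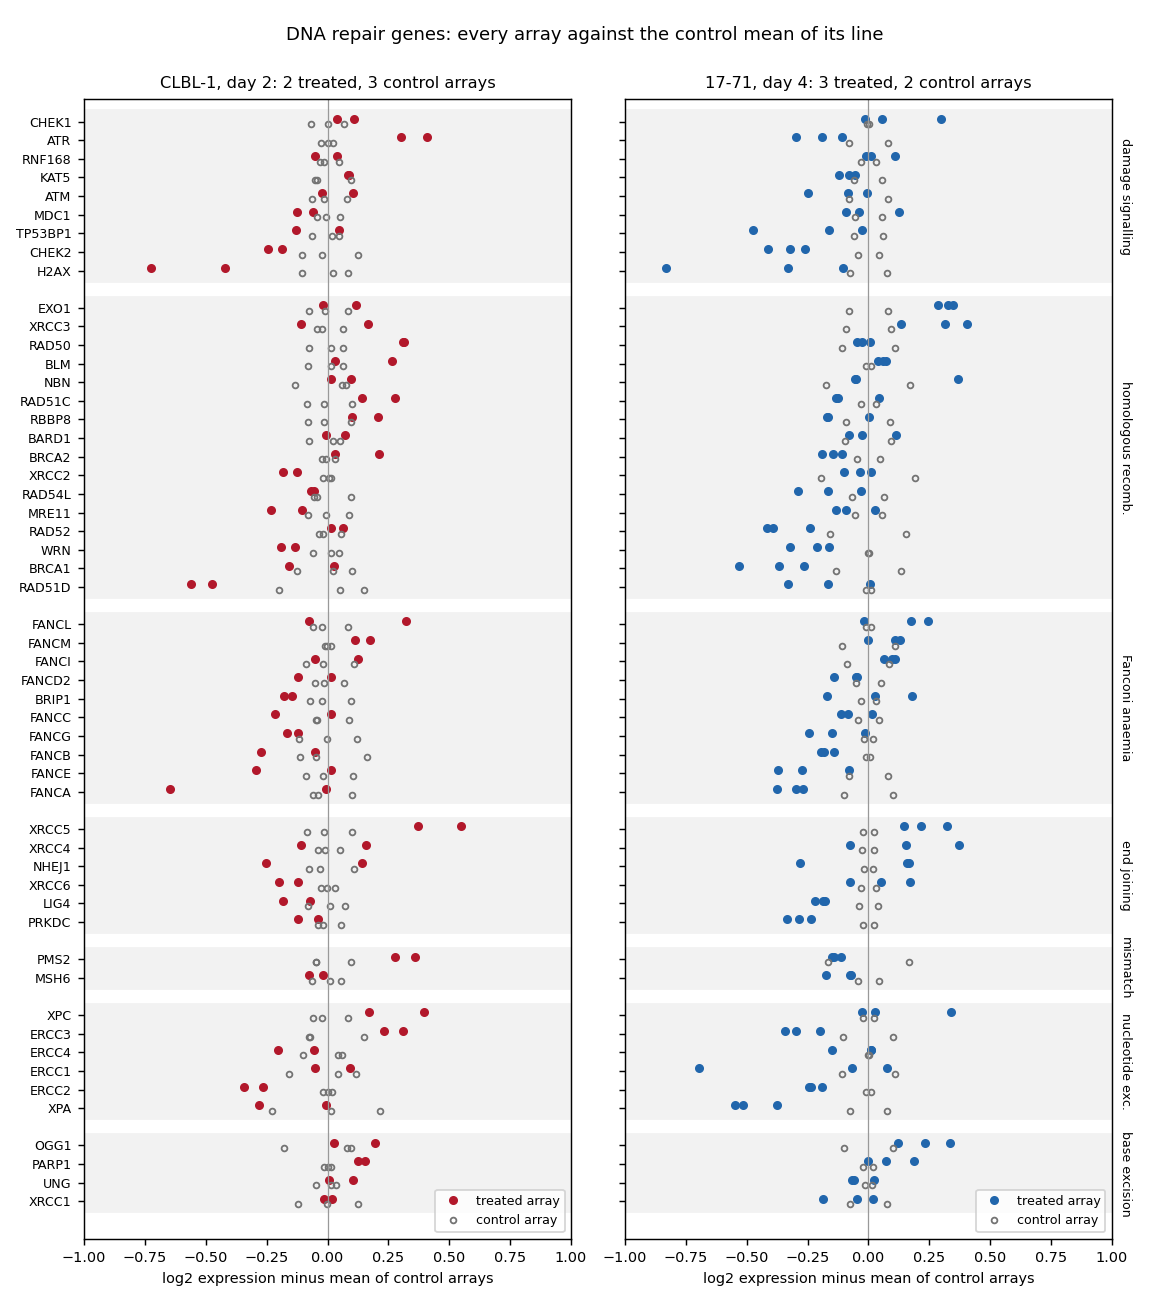
Log2 expression of each of the 53 repair genes in every array minus the control mean of that line (x axis), with genes down the page by role group and, within a group, by their common effect. Filled points are treated and open points control arrays of CLBL-1 (left) and 17-71 (right); most treated points lie within 0.5 of 0, and H2AX, RAD51D, FANCA and XRCC5 in CLBL-1 and H2AX, ERCC1, XPA and BRCA1 in 17-71 have points beyond it.

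The lines share no arrays, so the mean of their 2 treated minus control differences (the common effect, from a fit of all 10 arrays) was also tested. Of the 53 repair genes 1 passed, ERCC2, which fell, against 1.59% of all probe sets (1.27% lower) and 4.57% of the similarly bright genes. Without adjustment 13 genes passed, 3 higher and 10 lower where 6.93% and 7.55% of all probe sets did so (24.5% of the genes, against 14.5% of all probe sets and 28.2% of the similarly bright genes). The 10 lower were 18.9% of the repair genes, near the 16.3% of similarly bright genes. The median common effect was -0.036 (-0.016 under a repeat of the quantile normalisation), against 0.0063 over all single-symbol genes and -0.0012 over the similarly bright. Arrays did not overlap in the same direction in both lines for 6 genes, against 6.88% of all probe sets and 15.9% of the similarly bright genes. XRCC5 was the 1 gene higher in treated arrays of both lines (3.08% of all probe sets were), and CHEK2, H2AX, WRN, PRKDC and ERCC2 were the 5 lower in both (9.43% of the genes, against 3.79% of all probe sets and 9.79% of the similarly bright genes).

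ERCC2 encodes XPD, a helicase of TFIIH, which is a complex that opens DNA around a lesion in nucleotide excision repair and at promoters. Its level was 5.35 and 5.43 in treated CLBL-1 arrays, against 5.72, 5.70 and 5.68 in control CLBL-1 arrays. In 17-71 the level was 6.37, 6.36 and 6.41 in treated arrays, against 6.61 and 6.59 in control arrays. Every treated array of either line lay below every control array of that line. ERCC2 fell 1.2-fold as the mean of both lines (log2 change -0.26, SE 0.0496, adjusted p = 0.0428), with a change of -0.30 in CLBL-1 (adjusted p = 0.224) and -0.22 in 17-71 (adjusted p = 0.546) when each line was tested alone. The call did not survive leaving out any 1 of the 10 arrays (adjusted p 0.0729 to 0.161, with a log2 change of -0.28 to -0.24), nor a repeat of the quantile normalisation (adjusted p = 0.0718).

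The remaining nucleotide excision genes included the second TFIIH helicase, ERCC3 (XPB), and the damage-verifying scaffold XPA. XPA read 5.13 and 4.85 in treated CLBL-1 arrays, against 4.91, 5.35 and 5.15 in control CLBL-1 arrays. In 17-71 XPA read 6.15, 6.32 and 6.18 in treated arrays, against 6.62 and 6.77 in control arrays. Treated and control XPA arrays overlapped in CLBL-1 and were apart in 17-71, and neither the change in 17-71 (-0.48, SE 0.106, adjusted p = 0.468) nor the common effect (-0.31, SE 0.102, adjusted p = 0.205) passed. ERCC3 read 7.61 and 7.68 in treated CLBL-1 arrays, against 7.30, 7.52 and 7.30 in control CLBL-1 arrays. In 17-71 ERCC3 read 5.28, 5.18 and 5.13 in treated arrays, against 5.58 and 5.37 in control arrays. Its treated arrays lay above all control arrays in CLBL-1 and below all of them in 17-71, so the changes of 0.27 and -0.28 cancelled in the common effect (-0.0038). The lesion sensor XPC and the nuclease subunits ERCC1 and ERCC4 had common effects of 0.20, -0.10 and -0.086, and none of these passed. Of the 6 measured genes of this pathway 1 fell, 0 rose, and the median common effect was -0.095.

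Among the 9 measured genes of damage signalling, 0 passed in either line, in the common effect or in the difference between lines, and the median common effect was -0.036. H2AX, the histone variant that is phosphorylated around breaks, had the widest change of this group. Its level was 8.63 and 8.33 in treated CLBL-1 arrays, against 8.94, 9.07 and 9.14 in control CLBL-1 arrays. In 17-71 it was 7.27, 7.04 and 6.54 in treated arrays, against 7.45 and 7.29 in control arrays. Both lines had their treated arrays below the controls, but the 3 treated 17-71 arrays were spread widely, and the common effect did not pass (-0.50, SE 0.141, adjusted p = 0.142). CHEK2, the checkpoint kinase downstream of ATM, read 6.41 and 6.35 in treated CLBL-1 arrays, against 6.58, 6.72 and 6.49 in control CLBL-1 arrays. In 17-71 CHEK2 read 5.76, 5.61 and 5.70 in treated arrays, against 6.07 and 5.98 in control arrays. Here too all treated arrays were lower, with a common effect of -0.27 (SE 0.0662, adjusted p = 0.0947). ATR, the kinase that answers to single-stranded DNA at stalled forks, read 7.54 and 7.43 in treated CLBL-1 arrays, against 7.15, 7.10 and 7.13 in control CLBL-1 arrays. In 17-71 ATR read 6.65, 6.73 and 6.54 in treated arrays, against 6.76 and 6.92 in control arrays. ATR was thus higher in treated CLBL-1 arrays (0.35, SE 0.0857, adjusted p = 0.189) and lower in treated 17-71 arrays (-0.20, SE 0.108, adjusted p = 0.638), without overlap in either line and without passing. The common effects of ATM, CHEK1, MDC1, TP53BP1, RNF168 and KAT5 lay between -0.13 (TP53BP1) and 0.094 (CHEK1).

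**Figure D2:**
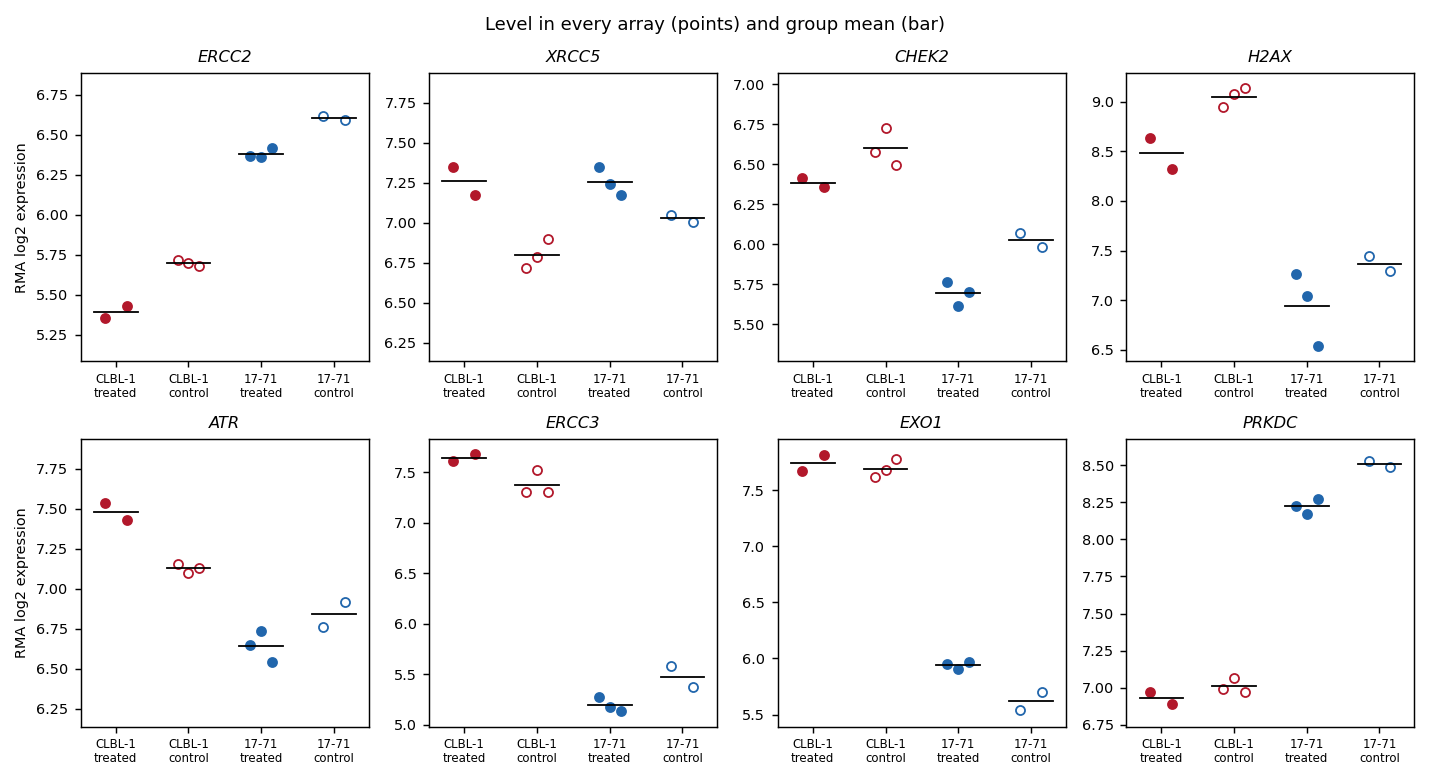
RMA log2 expression (y axis, with its own range in each panel) of 8 repair genes in every array (points) and the group mean (bar), for treated and control CLBL-1 and treated and control 17-71 from left to right. The treated arrays of ERCC2, CHEK2 and H2AX lie below and those of XRCC5 above their controls in both lines, ATR and ERCC3 differ in opposite directions, and EXO1 and PRKDC differ mainly between the lines.

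Homologous recombination was represented by 16 measured genes, of which 0 passed in any of the treatment comparisons, with a median common effect of 0.0017 that turned to -0.011 under cyclic loess normalisation. RAD51D, a factor of early strand exchange, read 4.97 and 4.88 in treated CLBL-1 arrays, against 5.49, 5.59 and 5.24 in control CLBL-1 arrays. In 17-71 RAD51D read 5.01, 5.35 and 5.17 in treated arrays, against 5.35 and 5.33 in control arrays. The CLBL-1 arrays were apart, those of 17-71 overlapped, and the change in CLBL-1 (-0.52, SE 0.129, adjusted p = 0.198) did not pass. WRN, a RecQ helicase with exonuclease activity, read 7.54 and 7.60 in treated CLBL-1 arrays, against 7.78, 7.75 and 7.67 in control CLBL-1 arrays. In 17-71 WRN read 6.09, 6.21 and 6.25 in treated arrays, against 6.42 and 6.41 in control arrays. Treated arrays were below the controls in both lines by a small amount (-0.20, SE 0.0571, adjusted p = 0.152). EXO1, the nuclease that resects DNA ends and also acts in mismatch repair, read 7.67 and 7.81 in treated CLBL-1 arrays, against 7.62, 7.68 and 7.78 in control CLBL-1 arrays. In 17-71 EXO1 read 5.95, 5.91 and 5.97 in treated arrays, against 5.54 and 5.70 in control arrays. The CLBL-1 arrays overlapped, and those of 17-71 were apart without passing (0.32, SE 0.0951, adjusted p = 0.514). RAD50, part of the complex with MRE11 and NBN that first binds a break, read 8.40 and 8.40 in treated CLBL-1 arrays, against 8.10, 8.15 and 8.01 in control CLBL-1 arrays. In 17-71 RAD50 read 7.70, 7.68 and 7.74 in treated arrays, against 7.84 and 7.62 in control arrays. RAD50 was higher in treated CLBL-1 arrays without passing (0.31, SE 0.0885, adjusted p = 0.241), and its 17-71 arrays overlapped. The other 12 genes had common effects between -0.23 (BRCA1, which directs breaks towards recombination) and 0.16 (XRCC3, which also acts in strand exchange).

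None of the 10 measured Fanconi anaemia genes passed, and their median common effect was -0.078. FANCA, a subunit of the core ubiquitin ligase complex, read 5.87 and 6.51 in treated CLBL-1 arrays, against 6.48, 6.62 and 6.46 in control CLBL-1 arrays. In 17-71 FANCA read 5.00, 4.97 and 4.89 in treated arrays, against 5.17 and 5.37 in control arrays. In CLBL-1 only 1 of the treated arrays lay below the controls, and the common effect was -0.32 over all arrays (adjusted p = 0.273) and lay between -0.48 and -0.16 when each array was left out. FANCB, another core subunit, read 6.32 and 6.10 in treated CLBL-1 arrays, against 6.33, 6.54 and 6.26 in control CLBL-1 arrays. In 17-71 FANCB read 4.76, 4.71 and 4.72 in treated arrays, against 4.90 and 4.91 in control arrays. The treated arrays of FANCB were apart from the controls in 17-71 and overlapped them in CLBL-1 (common effect -0.17, adjusted p = 0.357). FANCM, the translocase that anchors the core complex to DNA, read 7.47 and 7.41 in treated CLBL-1 arrays, against 7.31, 7.30 and 7.29 in control CLBL-1 arrays. In 17-71 FANCM read 5.61, 5.63 and 5.49 in treated arrays, against 5.39 and 5.61 in control arrays. Its change was 0.14 in CLBL-1, where the arrays were apart, and 0.079 in 17-71, where they overlapped. BRIP1, the BRCA1-bound helicase FANCJ, read 6.22 and 6.25 in treated CLBL-1 arrays, against 6.49, 6.38 and 6.33 in control CLBL-1 arrays. In 17-71 BRIP1 read 5.48, 5.33 and 5.13 in treated arrays, against 5.27 and 5.33 in control arrays. The treated CLBL-1 arrays of BRIP1 lay below the controls by an amount that did not pass (-0.16, SE 0.0928, adjusted p = 0.508), and its 17-71 arrays overlapped. The common effects of FANCC, FANCD2, FANCE, FANCG, FANCI and FANCL ran from -0.19 (FANCE) to 0.13 (FANCL).

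Of the 6 end joining genes, 0 passed. XRCC5 encodes Ku80, which with Ku70 (XRCC6) clamps onto broken ends. XRCC5 read 7.35 and 7.17 in treated CLBL-1 arrays, against 6.72, 6.78 and 6.90 in control CLBL-1 arrays. In 17-71 XRCC5 read 7.35, 7.24 and 7.17 in treated arrays, against 7.05 and 7.0 in control arrays. All treated arrays lay above the controls of their line, and the common effect came close to the threshold without reaching it (log2 change 0.34, SE 0.0684, adjusted p = 0.052). Under a repeat of the quantile normalisation XRCC5 passed (0.35, adjusted p = 0.0486) and ERCC2 did not, so that the 1 repair gene past the threshold was then one that rose instead of one that fell. XRCC6, its partner, had a common effect of -0.056 (adjusted p = 0.759). PRKDC, the kinase that Ku recruits, read 6.97 and 6.89 in treated CLBL-1 arrays, against 6.99, 7.07 and 6.97 in control CLBL-1 arrays. In 17-71 PRKDC read 8.22, 8.17 and 8.27 in treated arrays, against 8.53 and 8.49 in control arrays. The treated arrays of PRKDC were lower in both lines, narrowly so in CLBL-1 (common effect -0.18, adjusted p = 0.156). XRCC4, LIG4 and NHEJ1, which seal the ends, had common effects of 0.087, -0.16 and -0.02, and none passed.

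Mismatch repair was covered by 2 genes and base excision with single-strand break repair by 4, and 0 of these passed. MSH6, which takes part in recognising mispaired bases, read 7.39 and 7.45 in treated CLBL-1 arrays, against 7.52, 7.40 and 7.48 in control CLBL-1 arrays. In 17-71 MSH6 read 7.05, 7.06 and 6.95 in treated arrays, against 7.17 and 7.08 in control arrays. The MSH6 arrays overlapped in CLBL-1, and the common effect was -0.077 (adjusted p = 0.607). PMS2, which acts after a mismatch has been recognised, read 7.14 and 7.06 in treated CLBL-1 arrays, against 6.73, 6.73 and 6.88 in control CLBL-1 arrays. In 17-71 PMS2 read 6.33, 6.36 and 6.33 in treated arrays, against 6.31 and 6.64 in control arrays. PMS2 was higher in treated CLBL-1 arrays without passing (0.32, SE 0.0944, adjusted p = 0.254), and its 17-71 arrays overlapped. PARP1, which senses nicks and builds poly(ADP-ribose), read 8.51 and 8.48 in treated CLBL-1 arrays, against 8.34, 8.36 and 8.37 in control CLBL-1 arrays. In 17-71 PARP1 read 8.23, 8.31 and 8.42 in treated arrays, against 8.25 and 8.21 in control arrays. The common effect of PARP1 was 0.11 (adjusted p = 0.421), with arrays apart in CLBL-1 and overlapping in 17-71. OGG1, the glycosylase for oxidised guanine, read 4.86 and 4.69 in treated CLBL-1 arrays, against 4.74, 4.76 and 4.48 in control CLBL-1 arrays. In 17-71 OGG1 read 5.64, 5.42 and 5.53 in treated arrays, against 5.40 and 5.20 in control arrays. The treated arrays of OGG1 were above the controls in 17-71 without passing (0.23, SE 0.117, adjusted p = 0.618) and overlapped them in CLBL-1. UNG, the glycosylase that removes uracil and acts in antibody diversification, read 8.81 and 8.91 in treated CLBL-1 arrays, against 8.84, 8.76 and 8.82 in control CLBL-1 arrays. In 17-71 UNG read 8.79, 8.71 and 8.70 in treated arrays, against 8.78 and 8.76 in control arrays. The UNG arrays overlapped in both lines (common effect 0.01), and the scaffold XRCC1 had a common effect of -0.035.

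**Figure D3:**
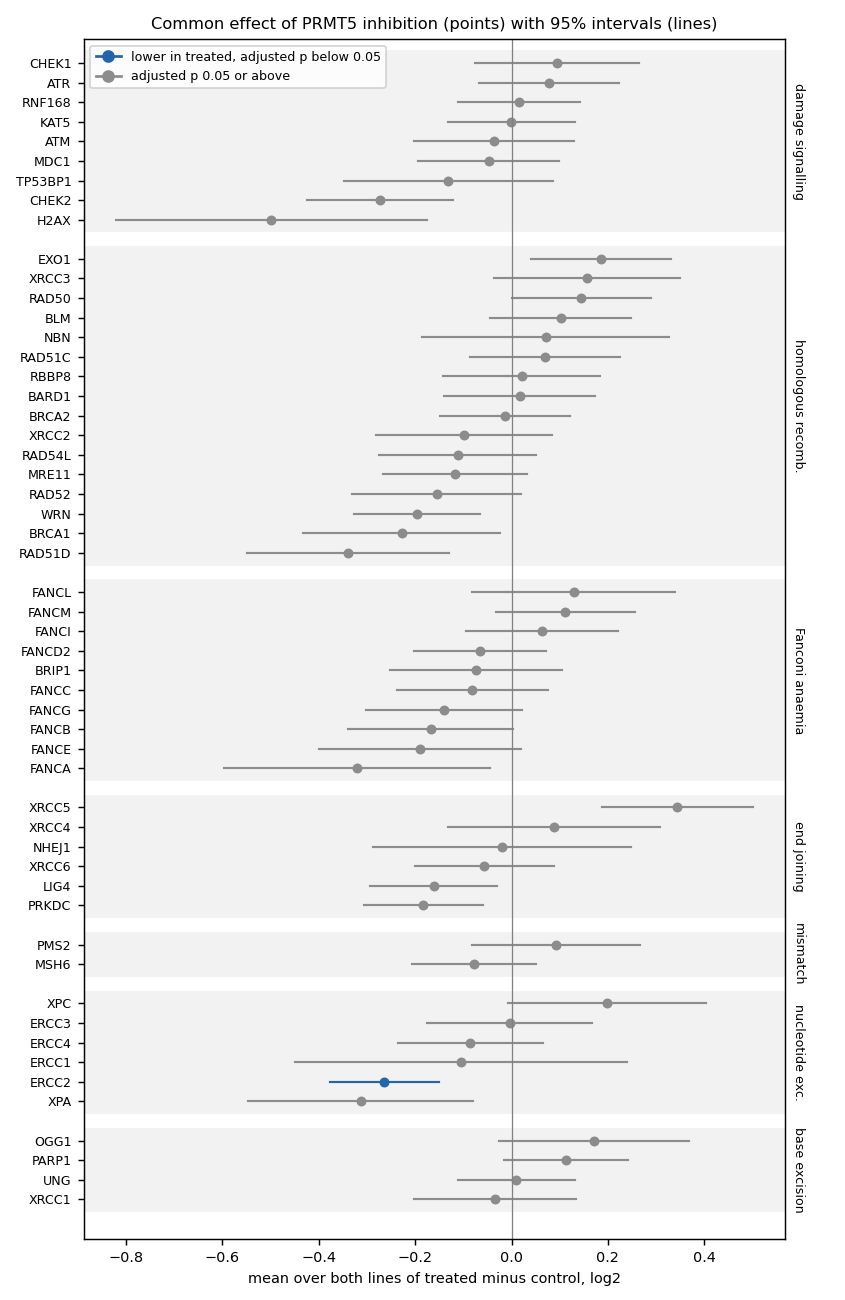
Mean over both lines of treated minus control (log2, x axis) for the 53 measured repair genes by role group, with 95% intervals from the fit of all 10 arrays. ERCC2, at -0.26, is the gene past the adjusted threshold (blue), and H2AX at -0.50 and XRCC5 at 0.34 are the lowest and the highest estimates.

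How many repair genes passed depended on which probe sets were tested and how the variance was modelled, although the estimates themselves did not move. With probe sets of a mean of at least 4 only, 4 genes passed in CLBL-1 (ATR and XRCC5 higher, H2AX and ERCC2 lower; 7.82% of the probe sets then tested) and 6 in the common effect (XRCC5 higher, CHEK2, RAD51D, WRN, PRKDC and ERCC2 lower; 10.5% of the probe sets then tested). With single-symbol probe sets only, 0 passed in CLBL-1 (3.66%) and 3 in the common effect (CHEK2, XRCC5 and ERCC2; 5.59%). With an intensity trend and robust variances, 4 passed in CLBL-1 (ATR, H2AX, RAD50 and XRCC5; 4.04%) and 4 in the common effect (CHEK2, XRCC5, PRKDC and ERCC2; 4.33%). Read against these backgrounds, the counts were near them with the filter on the mean, near or below them with single-symbol probe sets, and above them with the trend. The background of the trend covers all 32391 probe sets, dim ones included, and no share of similarly bright genes was taken under it. In the main fit of the common effect that share was 4.57%, against 1.59% of all probe sets. The higher counts under the trend therefore cannot be set apart from brightness.

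The difference of the effects between the lines (CLBL-1 minus 17-71) was tested in the same fit. Of the 53 genes 0 passed, against 0.0309% of all probe sets, and 5 passed without adjustment, all with the higher change in CLBL-1 (9.43% of the genes, against 11.3% of all probe sets, 5.92% in that direction, and 18.8% of the similarly bright genes). With probe sets of a mean of at least 4 only, ATR passed (2.16% of the probe sets then tested), and 0 passed with single-symbol probe sets (0.58%) or with the intensity trend (0.889%). The largest difference was that of ATR at 0.55 (95% interval 0.26 to 0.84, adjusted p = 0.194), followed by ERCC3 at 0.55 (0.21 to 0.89, adjusted p = 0.246) and PMS2 at 0.45 (adjusted p = 0.327). RAD50 (0.33) and RAD52, an annealing protein of recombination (0.39), were the other two below an unadjusted p of 0.05. By the smallest p within its group, BRIP1 had a difference of -0.17, PRKDC of 0.20 and UNG of 0.089. Arrays apart in opposite directions in the lines occurred for 3 genes, ATR, BRCA2 and ERCC3, each higher in treated CLBL-1 and lower in treated 17-71 arrays, against 3.98% of all probe sets and 7.16% of the similarly bright genes.

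A further list of 116 repair genes outside the 57 (105 measured) covered other factors of the same pathways, replication-coupled repair and chromatin at breaks. In either line alone 0 of them passed (limma). Without adjustment 14 were higher and 14 lower in CLBL-1, against 6.83% and 6.89% of all probe sets and 12.9% and 13.2% of similarly bright genes. In 17-71, 1 was higher and 11 lower, against 4.08% and 4.93% of all probe sets and 2.11% and 7.39% of similarly bright genes. In the common effect 0 rose and 3 fell (1.27% of all probe sets and 3.75% of similarly bright genes were lower). TIMELESS, a fork protection factor, read 4.68 and 5.15 in treated CLBL-1 arrays, against 5.86, 5.76 and 5.62 in control CLBL-1 arrays. In 17-71 TIMELESS read 4.85, 4.83 and 4.67 in treated arrays, against 5.32 and 5.14 in control arrays. It was lower in all treated arrays of both lines (log2 change -0.64, SE 0.104, adjusted p = 0.0262), and the call held in 1 of the 10 fits with an array left out, that without CLBL-1 treated replicate 2. APEX2, an AP endonuclease, read 6.13 and 6.23 in treated CLBL-1 arrays, against 6.97, 7.05 and 7.06 in control CLBL-1 arrays. In 17-71 APEX2 read 7.93, 7.89 and 7.83 in treated arrays, against 7.91 and 7.92 in control arrays. Its common effect (-0.44, SE 0.0546, adjusted p = 0.00953) combined changes of -0.85 in CLBL-1 and -0.033 in 17-71, and the difference between the lines did not pass (adjusted p = 0.0666). The call of APEX2 held in 9 of 10 fits with an array left out and was lost without CLBL-1 treated replicate 1 (adjusted p = 0.0505). DDB2, the sensor of ultraviolet damage and a p53 target in human cells, read 6.20 and 6.39 in treated CLBL-1 arrays, against 7.06, 7.11 and 7.10 in control CLBL-1 arrays. In 17-71 DDB2 read 6.03, 6.25 and 6.10 in treated arrays, against 6.30 and 6.03 in control arrays. The common effect of DDB2 (-0.42, SE 0.0788, adjusted p = 0.0437) likewise combined -0.79 in CLBL-1 with -0.038 in 17-71 (difference, adjusted p = 0.165), and its call was lost on leaving out any 1 array.

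Differences between the untreated lines ran wider, from -1.56 (XPA) to 2.07 (EXO1). Of the 53 repair genes, 33 passed between control CLBL-1 and control 17-71 arrays, 24 higher and 9 lower in CLBL-1 (62.3% of the genes, against 31.5% of all probe sets, 16.8% higher and 14.7% lower). Among the similarly bright genes 66.3% passed, 35.2% higher and 31.1% lower, so that the share of repair genes past the threshold was near that of such genes, while 45.3% of the repair genes were higher in CLBL-1 and 17% lower. The median difference was 0.31 over the repair genes, 0.017 over all single-symbol genes and 0.057 over the similarly bright. Control arrays of the lines did not overlap for 44 genes (83%), against 52.4% of all probe sets and 84.5% of the similarly bright genes. Of the 33 calls, 26 held in all 10 fits with an array left out, the exceptions being ATM, ATR, BRCA2, XRCC3, RAD50, FANCE and MSH6. BRCA2 was lost without 17-71 control replicate 1, and RAD50, FANCE and MSH6 without 17-71 control replicate 2. ATM was lost without 17-71 control replicate 1 or CLBL-1 control replicate 2 or 3, XRCC3 without 17-71 control replicate 1 or any 1 CLBL-1 control array, and the call of ATR held in 3 of the 10 fits (those without 17-71 control replicate 2 or 17-71 treated replicate 2 or 3).

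**Figure D4:**
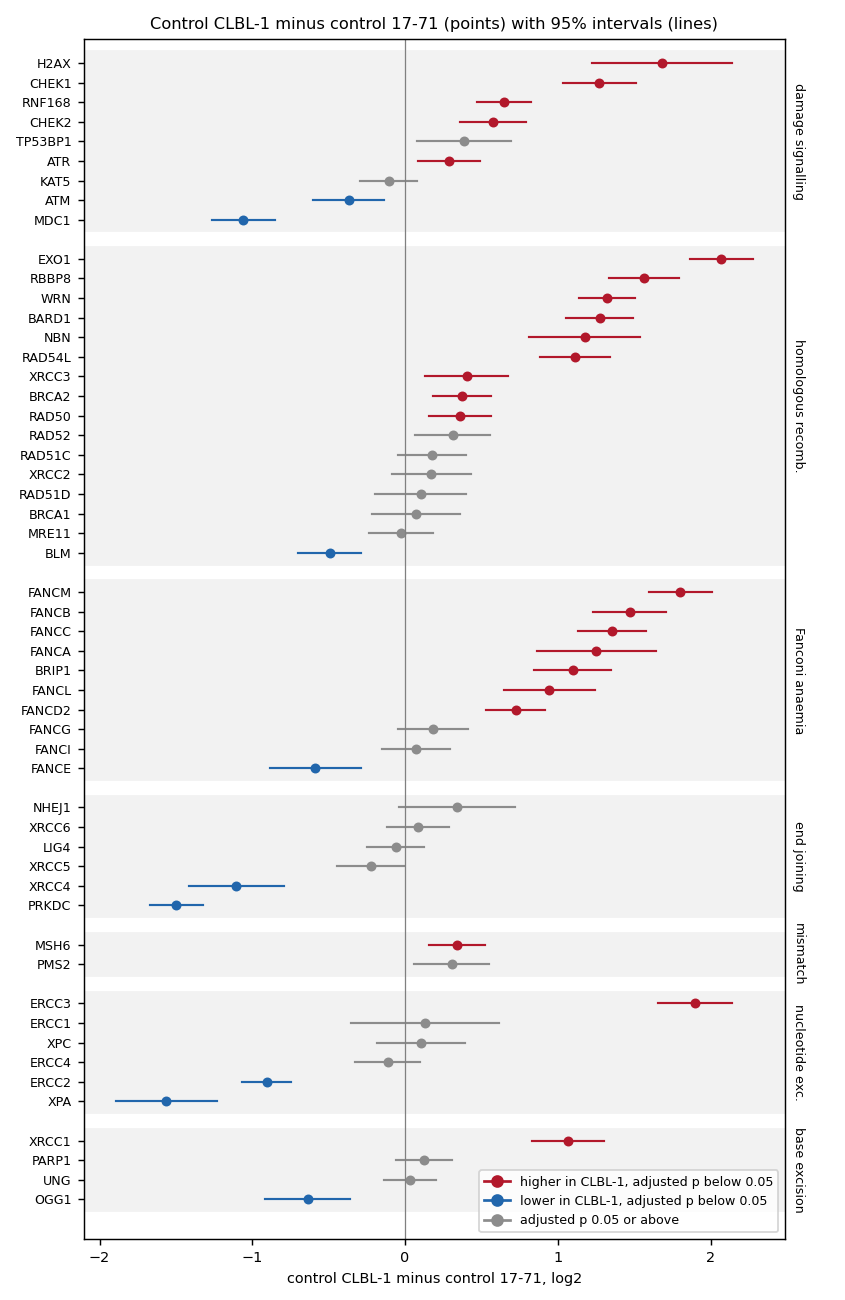
Control CLBL-1 minus control 17-71 (log2, x axis) for the 53 measured repair genes by role group, with 95% intervals. The 24 genes past the threshold and higher in CLBL-1 are red, the 9 lower in CLBL-1 blue and the others grey; 7 of 10 Fanconi anaemia and 9 of 16 homologous recombination genes are red, and 0 of 6 end joining genes.

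Among the 53 genes, homologous recombination (16 measured) and the Fanconi anaemia pathway (10 measured), the 2 largest groups, held most of those higher in CLBL-1. Of the further repair genes 48 passed as higher and 16 as lower in CLBL-1. Those lower included the crosslink repair factors FAAP24 (-1.78) and FAN1 (-1.18) and the recombination factors RAD51AP1 (-0.47) and SWI5 (-0.48). In the Fanconi group 7 of 10 were higher and 1 lower, with a median difference of 1.02. FANCM averaged 7.30 ± 0.0122 (SD, n = 3) in control CLBL-1 and 5.50 ± 0.156 (SD, n = 2) in control 17-71 arrays, a 3.49-fold difference (1.80, SE 0.0895, adjusted p = 9.07e-07). FANCB (1.47), FANCC (1.35), FANCA (1.25) and BRIP1 (1.10) also exceeded 1 log2 unit, and FANCL, the ligase subunit, and FANCD2, the protein it modifies, stood at 0.94 and 0.73. FANCE, a core subunit, was the 1 lower in CLBL-1 (-0.59, adjusted p = 0.00758). FANCG and FANCI did not pass (0.18 and 0.07).

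In homologous recombination 9 of 16 were higher and 1 lower, with a median difference of 0.37. EXO1 had the largest difference of all 53 genes, with 7.69 ± 0.0804 (SD, n = 3) in control CLBL-1 and 5.62 ± 0.113 (SD, n = 2) in control 17-71 arrays (4.2-fold, log2 difference 2.07, SE 0.0897, adjusted p = 4.03e-07). RBBP8 (CtIP, which starts end resection) stood 1.56 higher, WRN 1.32, BARD1 (the partner of BRCA1) 1.27, NBN 1.17 and RAD54L, a motor of strand exchange, 1.11. The differences of XRCC3, BRCA2 and RAD50 were smaller, at 0.40, 0.37 and 0.36. BLM, the Bloom syndrome helicase, was lower in CLBL-1 (-0.49, SE 0.0905, adjusted p = 0.00272). BRCA1 (0.069) and MRE11 (-0.028) were among the 6 that did not pass.

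Damage signalling split by gene, with 5 of 9 higher and 2 lower in CLBL-1 and a median of 0.39. H2AX averaged 9.05 ± 0.0976 (SD, n = 3) in control CLBL-1 and 7.37 ± 0.109 (SD, n = 2) in control 17-71 arrays (3.21-fold, log2 difference 1.68, SE 0.199, adjusted p = 0.000191). CHEK1, the kinase that acts with ATR, stood 1.27 higher, RNF168, a ubiquitin ligase at breaks, 0.65, CHEK2 0.57 and ATR 0.29. MDC1, the adaptor that binds phosphorylated H2AX, ran the other way, with 6.47 ± 0.0475 (SD, n = 3) in control CLBL-1 and 7.53 ± 0.0781 (SD, n = 2) in control 17-71 arrays (-1.06, SE 0.0907, adjusted p = 2.55e-05). ATM was also lower in CLBL-1 (-0.37, adjusted p = 0.0234), and TP53BP1 and KAT5 did not pass.

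Among the listed genes, end joining was the group in which none passed as higher in CLBL-1. Of its 6 genes 0 passed higher and 2 lower, where 35.2% and 31.1% of similarly bright genes did, and the median difference was -0.14. The differences of 2 of the 6, NHEJ1 and XRCC6, were above 0. PRKDC averaged 7.01 ± 0.0498 (SD, n = 3) in control CLBL-1 and 8.51 ± 0.0311 (SD, n = 2) in control 17-71 arrays (2.82-fold lower in CLBL-1, log2 difference -1.50, SE 0.0758, adjusted p = 1.01e-06). XRCC4 averaged 5.35 ± 0.0456 (SD, n = 3) in control CLBL-1 and 6.45 ± 0.035 (SD, n = 2) in control 17-71 arrays (-1.10, SE 0.136, adjusted p = 0.000245). Neither Ku gene passed, with differences of -0.23 (95% interval -0.45 to -0.0042) for XRCC5 and 0.084 (-0.12 to 0.29) for XRCC6. NHEJ1 (0.34, 95% interval -0.039 to 0.72) and LIG4 (-0.061) did not pass either.

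The excision pathways held genes far apart in either direction. ERCC3 averaged 7.38 ± 0.129 (SD, n = 3) in control CLBL-1 and 5.48 ± 0.145 (SD, n = 2) in control 17-71 arrays (3.73-fold higher in CLBL-1, log2 difference 1.90, SE 0.105, adjusted p = 1.73e-06). The partner helicase ERCC2 averaged 5.70 ± 0.019 (SD, n = 3) in control CLBL-1 and 6.60 ± 0.0146 (SD, n = 2) in control 17-71 arrays and was lower in CLBL-1 (-0.91, SE 0.0702, adjusted p = 1.33e-05), as was XPA, with 5.14 ± 0.224 (SD, n = 3) in control CLBL-1 and 6.70 ± 0.106 (SD, n = 2) in control 17-71 arrays (-1.56, SE 0.144, adjusted p = 4.08e-05). XPC, ERCC1 and ERCC4 did not pass, and the median of the 6 genes was -0.0046 (-0.087 under cyclic loess). In base excision, XRCC1 was higher (1.07) and OGG1 lower (-0.64) in CLBL-1, while UNG and PARP1 did not pass (0.031 and 0.12). The median of this group, 0.078, changed sign to -0.054 under cyclic loess normalisation. MSH6 was higher in CLBL-1 (0.34, adjusted p = 0.0104), and PMS2 did not pass (0.31, adjusted p = 0.0633). Under cyclic loess the calls of MSH6 (adjusted p = 0.0561), ATR (0.157), XRCC3 (0.0502) and RAD50 (0.0717) were lost, and XRCC5 passed as lower in CLBL-1 (-0.32, adjusted p = 0.0317).

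The treated arrays, whose means this comparison did not use, gave a second reading of the line difference. Both comparisons took their variance from the same fit and covered the same lines and days. Calls shared by both are therefore no independent replication. Between treated CLBL-1 and treated 17-71 arrays 36 of 53 repair genes passed, against 31.3% of all probe sets and 67.7% of the similarly bright genes. Of the 33 genes called between the control arrays, 31 were called with the same sign in the treated arrays (93.9%, against 79.3% of all probe sets and 88% of the similarly bright genes called between the control arrays). Called in both with the same sign were 58.5% of the repair genes, 24.9% of all probe sets and 58.3% of the similarly bright genes. The 2 that did not pass there were ATM (-0.22) and XRCC3 (0.15). EXO1 differed by 1.80 between treated arrays and 2.07 between control arrays, PRKDC by -1.29 and -1.50, and XPA by -1.23 and -1.56. For ERCC3 the difference was 2.45 between treated and 1.90 between control arrays, and for ATR 0.84 and 0.29.

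**Figure D5:**
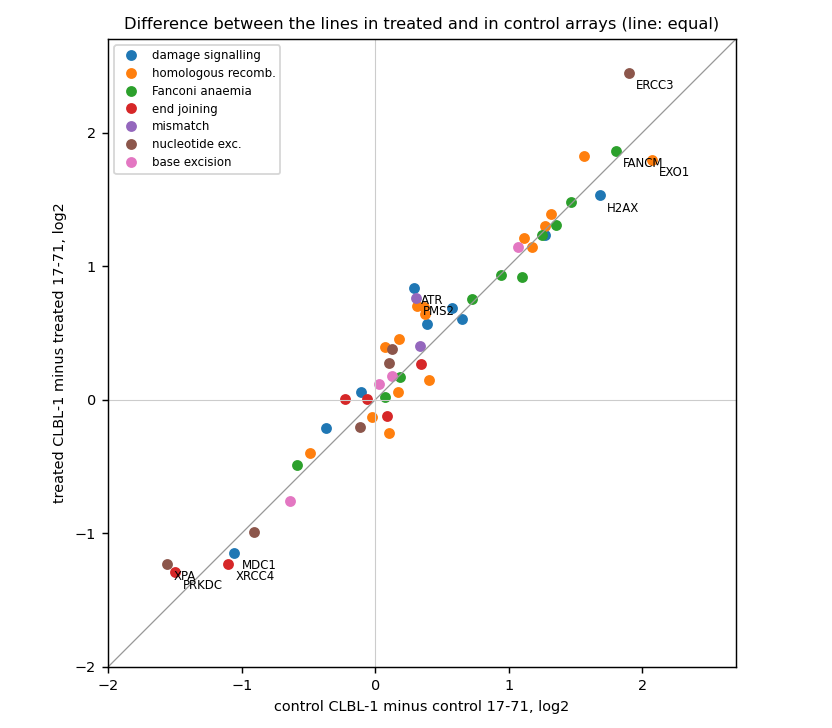
Difference between the lines (CLBL-1 minus 17-71, log2) in treated arrays (y axis) against the same difference in control arrays (x axis) for the 53 repair genes, coloured by role group. Points lie along the diagonal of equal values, from XPA and PRKDC at the lower left to EXO1 and ERCC3 at the upper right, with ATR, PMS2 and ERCC3 above it.

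Genes of the G1/S transition and DNA replication, which share no symbol with the 57, moved with the line difference as well. Of 42 measured, 38 were higher and 1 lower in control CLBL-1 than in control 17-71, with a median difference of 0.94 (16.8% of all probe sets and 35.2% of similarly bright genes were higher, 14.7% and 31.1% lower). With treatment their median common effect was 0.0090, and 0 rose and 3 fell (1.27% of all probe sets and 3.75% of similarly bright genes fell). Between the control arrays, the further list of repair genes gave 48 higher and 16 lower in CLBL-1 among 105 measured, with a median of 0.24 against 0.057 over the similarly bright genes. The role of cell proliferation, of B cell, T cell and myeloid marker differences and of collection day in repair gene levels was not tested.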

How the data were processed

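Total RNA from 10 samples, 1 array each, was profiled on Affymetrix canine whole-transcript gene arrays. The deposited values were log2 levels of each probe set, which the authors obtained by robust multi-array averaging (RMA). Affymetrix Expression Console and limma are also named in the submitters' processing notes. The study's methods place RMA in R. The versions of Expression Console and limma, filters and whether RMA treated both lines together were not given in the sources used here. Because RMA equalises the arrays, altered total RNA per cell would not appear. Arrays have no read depth, and their number limits the precision.

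Of 32391 probe sets, 16545 had 1 gene symbol in the platform annotation, 370 had several and 15476 were unnamed here. Of the 53 measured genes 52 matched a gene ID of the RefSeq table of the dog assembly UU_Cfam_GSD_1.0, all 52 under the same symbol, 1 (FANCC) had 2 probe sets, and 0 repeated the values of another probe set. Of the 4 genes without a probe set of their own, 1 lay on a probe set with several symbols.

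Two-sided tests by lmFit and eBayes were run in limma 3.58.1 (R 4.3.3), with Benjamini-Hochberg adjustment over all probe sets and a threshold of 0.05. Each line was fitted alone (3 residual degrees of freedom). A fit of the 4 group means (6 residual degrees of freedom) gave the common effect, the difference of the effects and the contrast of CLBL-1 with 17-71 controls. The procedure was tested on simulated data. The labels give no processing batch.

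The genes and lists were chosen with earlier results of these data known. Values in every array were given for genes past the threshold in a treatment comparison, for the 2 genes per role group with the smallest p in the common effect and the 1 with the smallest p in each line and in the difference, and for PRMT5 and up to 3 further repair genes. Between control groups, the 4 largest differences in each direction among genes past the threshold were given. BRCA2 was added because of its separation. No test was run on a gene list. Alternatives were a repeated quantile normalisation, cyclic loess, a filter at a mean of 4, single-symbol probe sets only, an intensity trend with robust variances, a replicate block, the mean over probe sets of a gene, an unadjusted threshold, the joint fit, and leaving out each array. Taking treated in place of control arrays for the line difference was chosen after seeing the data.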

Additional observations from a re-analysis of the deposited data

Results flagged for a closer look

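ATR, BRCA2 and ERCC3 were flagged because every treated CLBL-1 array lay above the CLBL-1 controls while every treated 17-71 array lay below the 17-71 controls. Arrays were apart in opposite directions for 5.66% of the repair genes, against 3.98% of all probe sets and 7.16% of the similarly bright genes. The pattern was therefore no more frequent among repair genes than among genes of like brightness. The effect in CLBL-1 minus that in 17-71 was 0.55 for ATR (adjusted p = 0.194), 0.27 for BRCA2 (adjusted p = 0.443) and 0.55 for ERCC3 (adjusted p = 0.246), and none passed in limma's test of the difference over all probe sets. BRCA2, a mediator of homologous recombination, read 6.92 and 7.10 in treated CLBL-1 arrays, against 6.92, 6.88 and 6.86 in control CLBL-1 arrays. In 17-71 BRCA2 read 6.41, 6.37 and 6.32 in treated arrays, against 6.47 and 6.56 in control arrays. Both separations of BRCA2 were narrow, and in CLBL-1 the lower treated array and the highest control array were the same to 2 decimals. With only probe sets of a mean of at least 4 tested, the difference passed for ATR (adjusted p = 0.0469). Collection day differed with the line, and its part in these differences was not tested.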

How the results depend on the processing

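Counts of probe sets past the threshold depended strongly on the fit. In CLBL-1 the 43 probe sets became 1192 with a mean of at least 4, 605 with single-symbol probe sets, 1310 with an intensity trend and robust variances and 607 in the joint fit. In 17-71 the 0 became 35 with the trend and 15 in the joint fit. For the common effect the 515 became 1601 with the filter on the mean, 925 with single-symbol probe sets and 1404 with the trend, and for the difference of the effects the 10 became 329, 96 and 288. Counts of repair genes moved with them: in CLBL-1 to 4 under the filter on the mean and 4 under the trend, in the common effect (1) to 6, 3 and 4, and in the difference (0) to 1 under the filter on the mean. At an unadjusted p below 0.05 the probe sets numbered 4444 in CLBL-1, 2916 in 17-71, 4689 in the common effect and 3654 in the difference, and the repair genes 9, 9, 13 and 5. The median difference of the repair genes between control groups, 0.31, was 0.22 under cyclic loess and 0.40 between the treated arrays (a comparison chosen after seeing the data).

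Leaving out each array gave 0 to 0 probe sets in CLBL-1 and in 17-71, 155 to 305 in the common effect, 0 to 2 in the difference and 8466 to 10104 between control groups. Repair genes then numbered 0 to 0 in the common effect and 29 to 34 between control groups, whose median lay between 0.21 and 0.33. The change of PRMT5 in 17-71 (-0.032) ranged from -0.11 to 0.043, turning positive (0.043) without 17-71 control replicate 2 and (0.0027) without 17-71 treated replicate 2. The cause of these shifts was not tested, except that fewer tests enter the adjustment under the filters and fewer arrays the fits that leave one out.

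The deviations of same-numbered treated and control arrays from their group means were hardly correlated (r = -0.022 and -0.026 in CLBL-1, -0.011 and 0.0079 in 17-71). In a group of 2 arrays the deviations mirror each other, so this check could not decide whether arrays were paired. The labels do not say whether equal numbers mark a pair. With the replicate block within each line 0 probe sets passed in CLBL-1, in the common effect and in the difference, and 0 repair genes in the common effect (ERCC2, adjusted p = 0.372). The block could not be fitted for the control groups, because each block lies within a line. In 176 other alternatives for these counts and medians, counts stayed within 1.5 times and medians moved by less than the spread between arrays (SD 0.0793). Among these the CLBL-1 median of the repair genes (0.0034) turned negative under cyclic loess (-0.012), with the replicate block (-0.0084) and without CLBL-1 control replicate 1, 2 or 3 or CLBL-1 treated replicate 2 (range -0.014 to 0.015). For single genes 731 alternatives kept the direction and the side of the threshold, 41 brought a gene past it (24 of them by dropping the adjustment) and 36 lost a call. The number of arrays limits what could be detected, and differences between the lines carry the collection day with them.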
